A study of Caenorhabditis elegans with 20 samples.

Results

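The subject here is the messenger RNA carried by ribosomes of the intestine of the nematode Caenorhabditis elegans, set against the RNA of the whole animal. It was taken from a series of translating ribosome affinity purification (TRAP), a method in which tagged ribosomes of a chosen cell type are immunoprecipitated and the transcripts bound to them are sequenced. Of the 20 libraries of the series, 4 belong to the intestine purification: 2 intestine TRAP libraries and 2 input libraries, chosen by their labels and set side by side in the deposited tables as replicate 1 and replicate 2. All 4 came from strain JAC382, as L4 larvae synchronised by bleaching, grown at 22 °C on NGM plates with OP50-1 bacteria and collected 46 to 48 h after release from L1 arrest. TRAP libraries hold the immunoprecipitated RNA, and the inputs hold RNA of the whole animal without purification, so the inputs contain intestinal RNA too. The labels give the strain but neither the tagged ribosomal protein nor the promoter that drove it, and do not say how many lines or animals were used.

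The intestine of C. elegans is a tube of large cells that runs from the pharynx to the rectum. It digests bacteria, stores fat, makes the yolk that feeds the oocytes, and is the first tissue to meet pathogens in the food. GATA-type transcription factors, chiefly ELT-2, switch on much of its gene set. A brush border of actin-filled microvilli lines its lumen, and acidic granules fill its cytoplasm.

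Levels are given as deposited in RPKM, which divides a gene's reads by its length and by the size of the library. A change is log2 of TRAP over input, each as RPKM + 1, which understates the change of genes with low levels. In the typical gene TRAP was lower than input: the median change of the 14051 genes tested was -0.51 in pair 1 (the replicate 1 libraries) and -0.94 in pair 2. Every change below was therefore taken relative to the median gene, so that 0 means a gene that moved like the median gene and not one with equal RPKM. The test was limma with the replicate as a block, at an adjusted p (Benjamini and Hochberg) below 0.05, and ± is the SE of that fit with n = 2 and 2 libraries. The fit leaves 1 residual degree of freedom per gene and pooled its spread fully over genes, so a gene whose own pairs differ is not penalised for it. Without the pairing of replicates limma called 0 genes, with 1906 at an unadjusted p below 0.05, so every call in the text rests on that pairing.

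Libraries held 87.2 and 139.9 M recovered reads (M for mega) in TRAP, against 169.9 and 108.6 M in input, and the median listed gene had 1028 to 2920 reads, so for such a gene counting error was small beside the gap between its pairs, 0.52 on the log2 scale in the median gene. Replicates 1 and 2 stood far apart for some genes in both fractions. The collagen gene col-19, used as a marker of the adult cuticle, had 801 and 17.1 RPKM in the TRAP libraries, against 1388 and 11.5 RPKM in the inputs. The oocyte yolk receptor gene rme-2 had 26.4 and 3.57 RPKM in the TRAP libraries, against 53.4 and 3.42 RPKM in the inputs. Both genes were thus high in replicate 1 and low in replicate 2 whichever fraction was read, and their part in the results was not tested. Pair 2 also showed wider changes, with an SD over the tested genes of 1.05, against 0.66 in pair 1.

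Of all genes tested, 1768 were higher in intestine TRAP (12.6% of those tested) and 681 were lower (4.85%). Every list count below is to be read beside these shares. The median change was 1.40 among the first and -1.24 among the second, and 1652 and 629 of them differed at least 2-fold from the median gene. Both pairs lay on the same side of 0 for 1766 of the higher genes and 679 of the lower ones. In RPKM as deposited, 1091 of the 1768 had both TRAP libraries above both inputs, against 8.3% of all genes, and 675 of the 681 were below both inputs, a position that 56.5% of all genes shared. The share of genes called higher was larger at high levels: 26.8% among the 3513 genes with the highest mean RPKM, above 33.6, against 6.49% to 9.28% in the other 3 groups of that size (quartiles of mean RPKM). Fewer cells of a type and less RNA per cell cannot be told apart in such bulk libraries. Nor can a gene's level in gut cells be told from its binding to ribosomes.

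**Figure D1:**
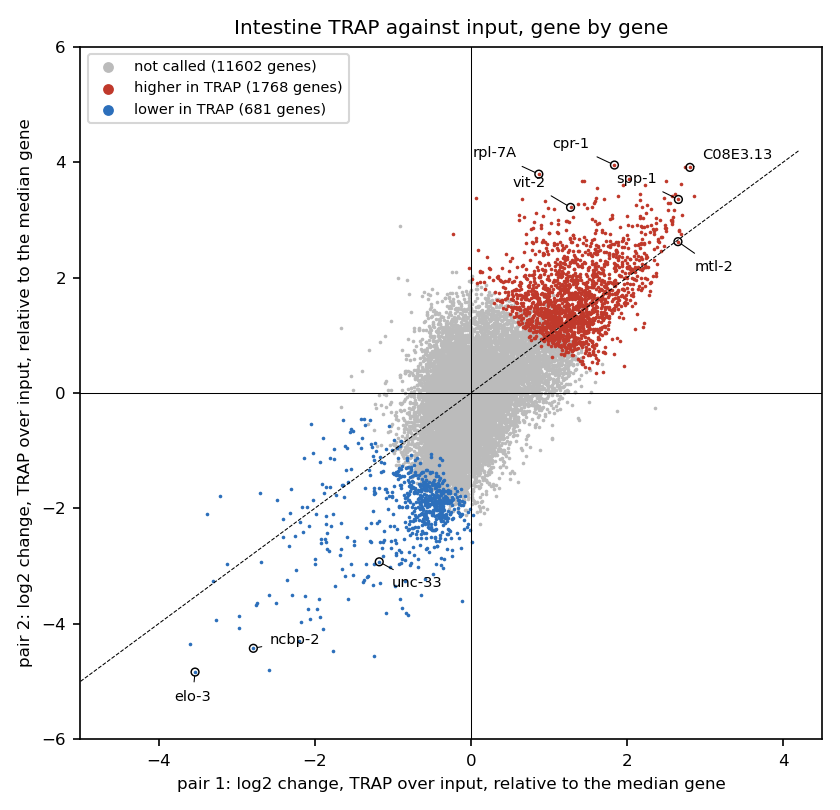
Each point is a gene, with its log2 change (TRAP over input, relative to the median gene) in pair 1 on the x axis and in pair 2 on the y axis. The dashed line marks equal change, and the 1768 genes called higher and 681 called lower lie mostly toward the upper right and lower left, with a wider spread in pair 2.

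The markers of the tissue were checked first. The saposin-like gene spp-1, whose product forms pores in bacterial membranes, had 491 and 1445 RPKM in the TRAP libraries, against 110.2 and 270.7 RPKM in the inputs. Both TRAP libraries were above both inputs, and spp-1 rose by 3.01 ± 0.36 (limma adjusted p = 2.13e-13). The gene cpr-1, for a protease of the cathepsin B type, had 1482 and 2662 RPKM in the TRAP libraries, against 590.0 and 330.0 RPKM in the inputs, a rise of 2.897 ± 0.40 (limma adjusted p = 1.33e-10) that was larger in pair 2 (3.95) than in pair 1 (1.84). The lysozyme gene lys-7, which protects against bacterial infection, had 1089.7 and 863 RPKM in the TRAP libraries, against 389 and 197.9 RPKM in the inputs (2.53 ± 0.37). For the metallothionein gene mtl-2, a metal-binding protein made in the gut, the groups overlapped, with 866.5 and 3925 RPKM in TRAP and 195.7 and 1224 RPKM in input. Within each pair mtl-2 was higher in TRAP by nearly the same amount, 2.65 and 2.62 (2.64 ± 0.40, limma adjusted p = 6.77e-09).

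Of 56 tested genes on a list of intestinal identity, 45 rose and 0 fell, beside 12.6% and 4.85% of all genes, and the list's median change was 1.78. The carboxylesterase gene ges-1, a classic gut enzyme, had 32.9 and 25.6 RPKM in the TRAP libraries, against 19.1 and 15.0 RPKM in the inputs (1.47 ± 0.39). Among the 11 members that did not pass were the peptide transporter gene pept-1 (0.71, limma adjusted p = 0.152), the acid phosphatase gene pho-1 (0.90, limma adjusted p = 0.0537) and the gap junction gene inx-16 (0.44). The lowest was far-3, for a fatty acid and retinol binding protein, at -0.73 with an adjusted p of 0.224 in limma.

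Lists of other tissues had medians below the median gene over both pairs, but in pair 1 alone those of sperm (0.13) and neuropeptide genes (0.034) were above it. Of all genes 4.85% were called lower. Of 40 body wall muscle genes 4 fell and 1 rose at a median of -0.62, and of 42 epidermis genes 8 fell and 0 rose at a median of -0.49. Pharynx genes had 1 lower and 0 higher of 24 and sperm genes 5 lower and 0 higher of 85, shares called lower near that of all genes (4.17% and 5.88%). edgeR called 2 pharynx and 2 sperm genes lower. Germline genes had 4 lower and 0 higher of 47, and pan-neuronal genes 4 lower and 3 higher of 29. The myosin light chain gene mlc-1 of body wall muscle had 238 and 145.9 RPKM in the TRAP libraries, against 505 and 1841 RPKM in the inputs (-1.64 ± 0.37). The neuronal gene unc-33, needed for axon growth, had 1.299 and 0.32 RPKM in the TRAP libraries, against 6.40 and 18.3 RPKM in the inputs (-2.05 ± 0.40). It was the lowest of the pan-neuronal list, in which 12 of 29 genes were above 0 and the highest change was 1.31. The exception in muscle was the myosin heavy chain gene unc-54, which had 140.0 and 130.7 RPKM in the TRAP libraries, against 104.2 and 77.3 RPKM in the inputs, and rose by 1.32 ± 0.35 (limma adjusted p = 0.00221). The other myosin heavy chain gene of body wall muscle, myo-3, changed by -0.09. For all 3 coelomocyte genes and all 4 gonadal sheath genes the higher TRAP library was below the lower input, a position that 56.5% of all genes shared. Only 1 of these 7 passed, the LIM homeobox gene lim-7 (-1.13).

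Summed over the whole muscle list, TRAP libraries had 7489 and 3832 RPKM, against 14629.7 and 19082 RPKM in the inputs. The epidermis list summed to 5888 and 4117 RPKM in the TRAP libraries, against 11033 and 9675 RPKM in the inputs, and the pan-neuronal list to 786 and 539 RPKM in the TRAP libraries, against 1031 and 841 RPKM in the inputs. As deposited the summed levels of these 3 lists were lower in TRAP, as the median gene was, and none was at 0. In both pairs the pan-neuronal sum fell by less than the median gene, and the muscle and epidermis sums fell by more. The neuronal exchange factor gene rgef-1 was near or at 0 in TRAP, with 0.12 and 0 RPKM in the TRAP libraries, against 1.29 and 3.14 RPKM in the inputs. The summed level of the intestinal identity list was 53943 and 92591 RPKM in the TRAP libraries, against 20540.5 and 26780.2 RPKM in the inputs.

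**Figure D2:**
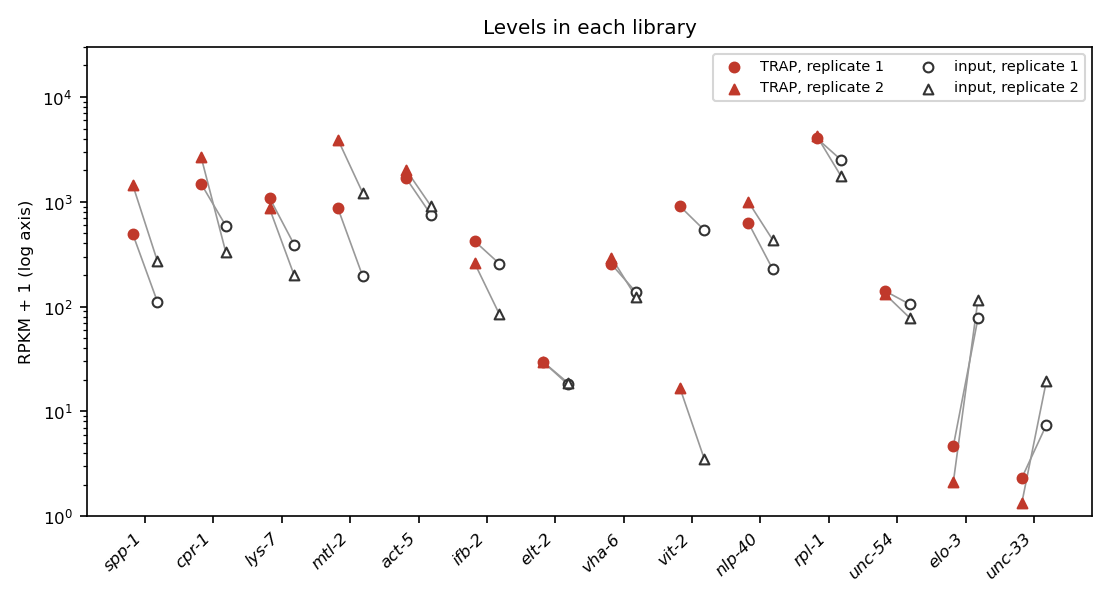
RPKM + 1 on a log axis for 14 genes, with the 2 TRAP libraries (filled) left of the 2 inputs (open) and a line joining the libraries of a replicate. Gut genes from spp-1 to vha-6 and nlp-40 slope down from TRAP to input in both replicates, vit-2 differs more between replicates than between fractions, and elo-3 and unc-33 slope up.

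Digestive enzymes were the first group. Cathepsin B-like proteases cut proteins in the acidic gut lumen and lysosomes, and all 5 tested genes of the family rose, at a median of 2.43. The gene cpr-5 had 1145 and 2508 RPKM in the TRAP libraries, against 542 and 480 RPKM in the inputs (2.46 ± 0.40), and cpr-4 had 1188 and 1574 RPKM in the TRAP libraries, against 483 and 367 RPKM in the inputs (2.43 ± 0.39). For all 5 genes both TRAP libraries were above both inputs, and cpr-3 had the smallest change (1.92 ± 0.36). All 12 aspartyl proteases rose as well, at a median of 1.97 and between 1.09 (asp-4) and 2.497 (asp-3). The gene asp-3, for a cathepsin D-like enzyme, had 3033 and 2057 RPKM in the TRAP libraries, against 1424 and 377 RPKM in the inputs.

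Other digestive enzymes were mixed, with 9 of 23 higher and 2 lower. The cathepsin Z-like gene cpz-1 had 1033 and 2107 RPKM in the TRAP libraries, against 427 and 655 RPKM in the inputs (2.21 ± 0.40). The deoxyribonuclease gene nuc-1, which degrades the DNA of eaten bacteria and of dead cells, had 88.7 and 72.6 RPKM in the TRAP libraries, against 42.8 and 35.6 RPKM in the inputs (1.75 ± 0.35). In the opposite direction went the alpha-glucosidase-like gene aagr-4 (-1.203 ± 0.39) and pcp-5, for a prolyl carboxypeptidase-like protein (-1.08 ± 0.40).

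Lysozymes break bacterial cell walls and serve both digestion and defence. All 13 tested lysozyme genes rose, at a median of 1.83, and for 8 of them both TRAP libraries exceeded both inputs. The invertebrate-type lysozyme gene ilys-5 had the highest levels, 5099 and 10856 RPKM in the TRAP libraries, against 1617 and 1915 RPKM in the inputs (2.81 ± 0.49). At the other end lys-3 had 7.28 and 2.75 RPKM in the TRAP libraries, against 3.30 and 3.45 RPKM in the inputs, and passed narrowly (1.08 ± 0.41, limma adjusted p = 0.0488). Its TRAP libraries lay on both sides of the inputs.

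Saposin-like proteins fell into separate ranges. Of 19 tested genes 13 rose, all between 1.79 (spp-8) and 3.09 (spp-14), and none fell. The other 6 lay between -0.77 and 0.55 and did not pass: spp-7, spp-22, spp-13, spp-15, spp-19 and spp-10. The gene spp-14 had 5008 and 12791 RPKM in the TRAP libraries, against 1259 and 1924 RPKM in the inputs, and spp-5 had 5143 and 11925 RPKM in the TRAP libraries, against 1215 and 2765 RPKM in the inputs. No member lay between 0.55 and 1.79, and spp-7, at 2.46 and 1.05 RPKM in the TRAP libraries, against 5.64 and 7.55 RPKM in the inputs, was below both inputs in both libraries.

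C-type lectins, carbohydrate-binding proteins of which many are induced by infection, were the largest immune family, with 58 of 110 tested genes higher and 1 lower at a median of 1.00. The gene clec-50 had 1399 and 1415 RPKM in the TRAP libraries, against 540 and 254 RPKM in the inputs (2.65 ± 0.39). Its neighbour in size of change, clec-47, had 747 and 2787 RPKM in the TRAP libraries, against 188.1 and 763 RPKM in the inputs (2.66 ± 0.39), so that its groups overlapped while both pairs rose. The single lower member was clec-90, with 0.54 and 0 RPKM in the TRAP libraries, against 8.42 and 6.60 RPKM in the inputs (-2.04 ± 0.36). Members of the lectin, saposin and lysozyme families include close copies, whose reads the counting may have divided between genes.

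A list drawn up for infection response held irg, thn, dod and fmo genes with hpo-6 and zip-2. Of its 22 tested genes 14 were higher and 1 lower, at a median of 1.32. Whether each of them responds to infection was not examined. The infection response gene irg-1 had 266 and 141.5 RPKM in the TRAP libraries, against 109.5 and 32.8 RPKM in the inputs (2.40 ± 0.35), and dod-3, named as a gene downstream of the FOXO factor DAF-16, had 23.8 and 38.3 RPKM in the TRAP libraries, against 6.60 and 9.33 RPKM in the inputs (2.54 ± 0.41). The flavin monooxygenase gene fmo-4 fell by 1.44 on the log2 scale. Of 9 tested antimicrobial peptide genes of the abf and cnc type 0 rose and 1 fell, beside 12.6% and 4.85% of all genes, and their median was 0.28 in pair 1 and -0.68 in pair 2. The 1 that fell was the defensin-like gene abf-6 (-1.12 ± 0.41, limma adjusted p = 0.039), and edgeR called 0 in either direction. Among 23 genes of immune signalling 2 rose, elt-2 and the bZIP factor gene zip-2 (1.05 ± 0.36), and 1 fell, the C/EBP-like gene cebp-1 (-1.11 ± 0.41).

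**Figure D3:**
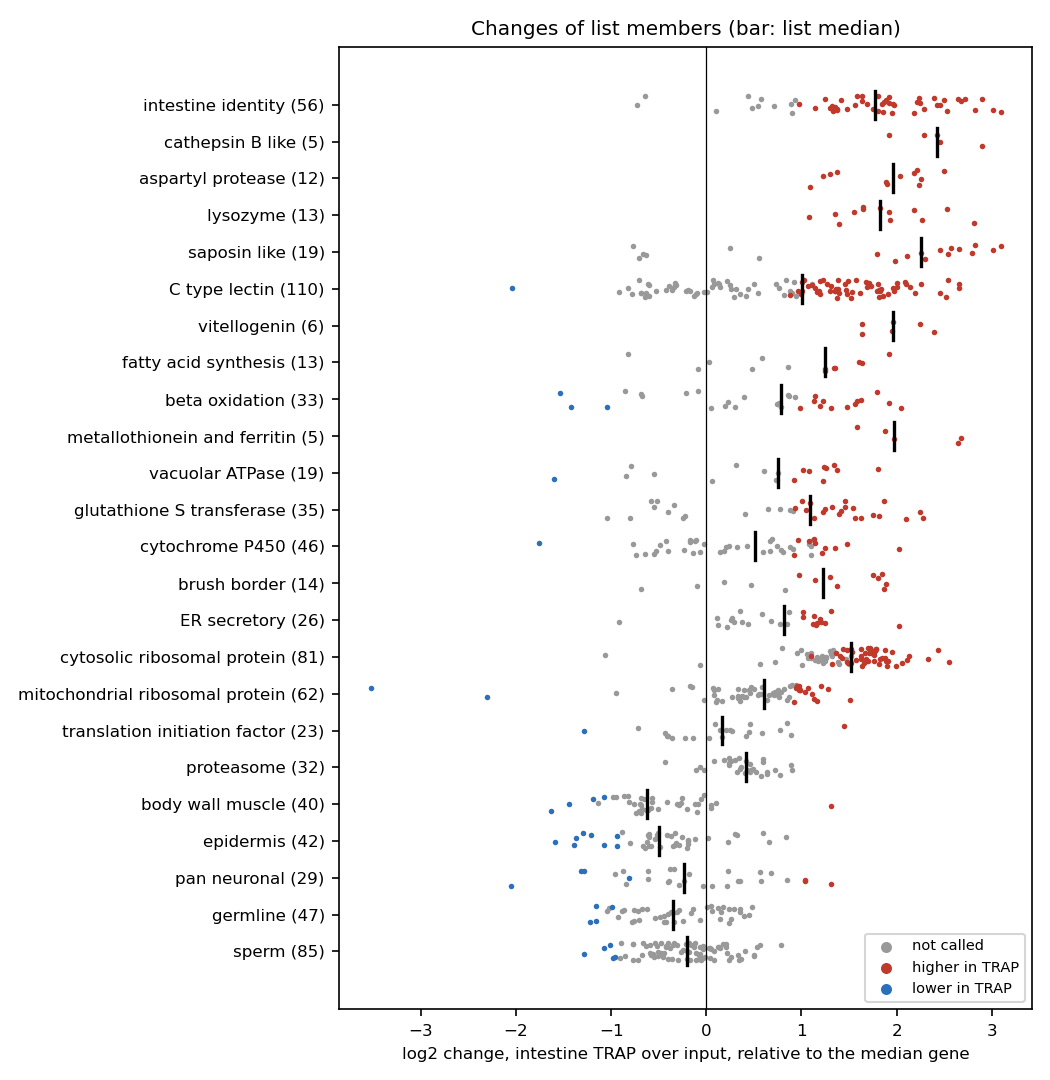
Log2 change (TRAP over input, relative to the median gene) of every tested member of 24 gene lists, with the number tested in parentheses and the list median as a bar. Cathepsin B-like, aspartyl protease, lysozyme, vitellogenin and metallothionein lists have all members called higher, while the medians of the 5 lists of other tissues at the bottom lie below 0.

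Yolk proteins are made in the intestine of the adult hermaphrodite and carried to the oocytes. All 6 vitellogenin genes rose, at a median of 1.96, but their levels differed far more between replicates than between fractions. The gene vit-2 had 908 and 15.9 RPKM in the TRAP libraries, against 534 and 2.48 RPKM in the inputs (2.25 ± 0.35, limma adjusted p = 1.88e-08). TRAP replicate 2 was therefore below input replicate 1 for vit-2, and no vitellogenin gene had both TRAP libraries above both inputs. Without the pairing, leaving out input replicate 2 turned the change of vit-2 to -1.38, and in all 6 genes the direction rests on comparing within replicates. The genes are near copies of one another in part, so single members are uncertain. The microsomal triglyceride transfer protein gene dsc-4, needed to load lipid on yolk, had 83.6 and 61.2 RPKM in the TRAP libraries, against 48.2 and 18.5 RPKM in the inputs (1.96 ± 0.36), the single higher gene among 6 of yolk assembly and uptake.

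Lipases release fatty acids from stored or eaten fat. Of 17 tested lipases 5 were higher (29.4%) and 3 lower (17.6%), beside 12.6% and 4.85% of all genes. Their median change was -0.50, with -0.19 in pair 1 and -0.80 in pair 2. The 5 that rose were of the lipl type, acid lipases of the lysosome, led by lipl-5 with 705 and 565 RPKM in the TRAP libraries, against 308 and 285 RPKM in the inputs (1.82 ± 0.37), followed by lipl-1 (1.62 ± 0.44), lipl-3 (1.36 ± 0.42), lipl-2 (1.27 ± 0.43) and lipl-4 (1.07). The lipl genes lipl-6 (-0.89) and lipl-7 (-1.03) did not pass. All 3 that fell were of the lips type, lips-17 (-1.22 ± 0.44), lips-3 (-1.17 ± 0.36) and lips-10 (-1.098 ± 0.38).

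Fatty acid elongases lengthen the carbon chain. The genes elo-1, for polyunsaturated fatty acids, and elo-2, which lengthens palmitate, rose by 1.16 ± 0.38 and 1.01 ± 0.36. Members elo-4 (-1.28 ± 0.39) and elo-7 (-1.54 ± 0.44) fell. The gene elo-3 had the lowest change of all tested genes, with 3.67 and 1.11 RPKM in the TRAP libraries, against 76.1 and 115.1 RPKM in the inputs (-4.18 ± 0.41, limma adjusted p = 8.67e-21). edgeR on recovered reads called elo-3, elo-4 and elo-7 lower too, but neither elo-1 nor elo-2 (edgeR adjusted p = 0.0681 and 0.0637).

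Of the 7 desaturase genes, which introduce double bonds, 2 rose (28.6%), fat-7 and fat-5, and 0 fell, beside 12.6% and 4.85% of all genes. The gene fat-7 had 13.6 and 102.6 RPKM in the TRAP libraries, against 6.58 and 83.8 RPKM in the inputs (1.35 ± 0.37). Its groups overlapped, and without the block its change turned to -0.28 without TRAP replicate 2 and to -0.39 without input replicate 1. The gene fat-5 rose by 1.34 ± 0.38. The stearoyl desaturase gene fat-6 (0.89) and the polyunsaturated fatty acid genes fat-1 (0.40), fat-2 (0.68), fat-3 (0.54) and fat-4 (0.23) did not pass. In fatty acid and triglyceride synthesis 7 of 13 genes rose and 0 fell, among them the acetyl-CoA carboxylase gene pod-2 (1.25), the hydroxysteroid dehydrogenase-like gene let-767 (1.63 ± 0.36) and the diacylglycerol acyltransferase gene dgat-2 (1.34 ± 0.35). Fatty acid synthase itself, fasn-1, had 10.7 and 10.7 RPKM in the TRAP libraries, against 27.2 and 40.7 RPKM in the inputs, below both inputs but not called (-0.82, limma adjusted p = 0.139).

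Beta-oxidation shortens fatty acids in mitochondria and peroxisomes, and 13 of its 33 tested genes rose (39.4%) while 3 fell (9.09%). The peroxisomal genes daf-22 (1.63 ± 0.35) and dhs-28 (1.80 ± 0.35), which complete the side chains of ascaroside pheromones, were both among those that rose. The gene dhs-28 had 268 and 325 RPKM in the TRAP libraries, against 148.9 and 132.0 RPKM in the inputs. The 3 that fell were the acyl-CoA dehydrogenase genes acdh-2 (-1.42 ± 0.40) and acdh-8 (-1.04 ± 0.37) and the enoyl-CoA hydratase gene ech-5 (-1.53 ± 0.41). Acyl-CoA synthetases, which activate fatty acids, had 5 of 20 higher (25%) and 0 lower. Among them acs-1 rose by 1.39 ± 0.35. Of all genes 12.6% were called higher and 4.85% lower.

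Fatty acid binding proteins carry lipid within and between cells, and 5 of 16 rose while 3 fell. These shares, 31.25% and 18.75%, stand beside 12.6% and 4.85% of all genes. The gene lbp-6 had 2508 and 3963 RPKM in the TRAP libraries, against 994 and 2644 RPKM in the inputs (1.69 ± 0.45), and lbp-5 (1.63 ± 0.36), lbp-3 (1.21 ± 0.35) and lbp-8 (1.32 ± 0.40) rose as well. The genes far-6 (-1.92 ± 0.39), far-5 (-1.18 ± 0.40) and lbp-2 (-1.12 ± 0.36) fell. edgeR called far-6 lower but neither far-5 nor lbp-2 (edgeR adjusted p = 0.0529 and 0.0844). The list's median was 0.080 in pair 1 and -0.39 in pair 2.

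Metal storage proteins bind surplus metal in the gut cells. All 5 genes of metallothioneins, ferritins and the cadmium-responsive gene cdr-1 were higher, at a median of 1.97, and 4 had both TRAP libraries above both inputs. The ferritin heavy chain gene ftn-2, for iron storage, had 1286 and 1862 RPKM in the TRAP libraries, against 535 and 903 RPKM in the inputs (1.88 ± 0.40). Among 13 genes of metal and heme transport 5 rose (38.5%) and 0 fell, beside 12.6% and 4.85% of all genes. Those that rose were the heme transporter gene hrg-4 (1.52 ± 0.36), hrg-3, for a secreted heme carrier (1.75 ± 0.40), the zinc transporter gene cdf-2 (1.34 ± 0.37), and the ferroportin-like genes fpn-1.1 (1.28 ± 0.39) and fpn-1.2 (1.07).

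Nutrient transporters bring the products of digestion into the cells. Of 22 tested genes of peptide, amino acid and sugar transport and sodium-proton exchange, 1 rose, the amino acid transporter gene aat-7 (0.86 ± 0.33, limma adjusted p = 0.0498), and 3 fell, aat-3 (-1.19 ± 0.38), aat-9 (-1.19 ± 0.43) and pept-3 (-1.12 ± 0.41). These shares, 4.55% higher and 13.6% lower, stand beside 12.6% and 4.85% of all genes. The list's median was -0.10, and edgeR called none of the 22 higher and 5 lower. The gut peptide transporter gene pept-1 had 62.3 and 76.6 RPKM in the TRAP libraries, against 45.6 and 107.0 RPKM in the inputs, with its groups overlapping.

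The vacuolar ATPase, the proton pump that acidifies the lumen and the lysosomes, had 9 of 19 subunit genes higher and 1 lower, and edgeR called 5 of the 19 higher. Both extremes were forms of the same membrane subunit, subunit a. The form vha-6, known from the intestinal apical membrane, had 253 and 293 RPKM in the TRAP libraries, against 135.7 and 122.4 RPKM in the inputs (1.80 ± 0.35, limma adjusted p = 1.07e-05). The form vha-5, known from the epidermis and excretory cell, had 23.7 and 9.59 RPKM in the TRAP libraries, against 55.9 and 114.7 RPKM in the inputs (-1.60 ± 0.37). The remaining forms unc-32 (0.09) and vha-7 (-0.79), named here after their values were seen, did not pass.

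Other families also held members that moved in opposite directions. Among aquaporins, aqp-4 (1.13 ± 0.35) and aqp-11 (1.25 ± 0.35) rose, and aqp-8, a water channel of the excretory cell, had 17.4 and 5.12 RPKM in the TRAP libraries, against 43.3 and 62.5 RPKM in the inputs (-1.59 ± 0.39). The intestinal actin gene act-5, which builds the microvilli, had 1668 and 2002 RPKM in the TRAP libraries, against 753 and 910 RPKM in the inputs (1.87 ± 0.41). The muscle actin gene act-4 had 782 and 235 RPKM in the TRAP libraries, against 2221 and 1187 RPKM in the inputs (-1.19 ± 0.39), although edgeR did not call it (edgeR adjusted p = 0.198). The actins are near copies, so reads may be divided between them.

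The brush border list had 9 of 14 genes higher and 0 lower. All 6 tested intermediate filament genes of the terminal web rose, at a median of 1.78. The gene ifb-2, a core filament of the intestinal web, had 420 and 258 RPKM in the TRAP libraries, against 256 and 83.8 RPKM in the inputs (1.89 ± 0.35), and ifc-2, ifd-2 and ifc-1 rose by 1.80 ± 0.36, 1.85 ± 0.40 and 1.76 ± 0.36. The microvillus genes erm-1 (0.98) and eps-8 (1.299) rose too. Junction genes that other epithelia also use did not pass, with dlg-1 at -0.10, let-413 at 0.19 and ajm-1 at 0.47. Also not called were hum-5 (0.83) and eat-20, the lowest of the list (-0.68).

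Detoxification enzymes were led by glutathione S-transferases, with 21 of 35 higher and 0 lower at a median of 1.08. The gene gst-27 had 286 and 441 RPKM in the TRAP libraries, against 117.9 and 124.4 RPKM in the inputs (2.27 ± 0.35). The gene gst-4, a common reporter of oxidative stress, changed by 0.40 and did not pass. Cytochromes P450 had 10 of 46 higher and 1 lower, from cyp-37A1 (2.03 ± 0.37) to cyp-42A1 (-1.76 ± 0.43). UDP-glucuronosyltransferases had 8 of 50 higher and 1 lower, and ABC transporters, which pump out lipids and toxins, 7 of 37 higher and 0 lower, shares of 16% and 18.9% beside 12.6% of all genes.

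Of 13 tested genes of gut transcription factors 7 rose and 0 fell. The gene elt-2 had 28.7 and 28.7 RPKM in the TRAP libraries, against 17.2 and 17.8 RPKM in the inputs (1.41 ± 0.39, limma adjusted p = 0.00339), and its partner elt-7 had 43.1 and 33.1 RPKM in the TRAP libraries, against 17.03 and 16.5 RPKM in the inputs (1.85 ± 0.38). Both had clear gaps between the groups. Of the 6 GATA factor genes tested, elt-2, elt-7 and elt-4 (1.25) rose, all expressed in gut, while the epidermal factors elt-1 (-0.10), elt-3 (-0.20) and elt-6 (-0.29) did not pass. Other gut regulators that rose were pqm-1 (2.07 ± 0.36), the nuclear receptor genes nhr-80 (1.35 ± 0.40) and nhr-8 (1.11), and the SREBP gene sbp-1 (1.24). The nuclear receptor gene nhr-49 (0.03), which works in fat metabolism, did not pass.

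Peptide signals were mostly lower in TRAP than in input as deposited, 80 of 95 genes below both inputs in both libraries beside 56.5% of all genes, and the median change was -0.30. Of these 95 neuropeptide and insulin genes 5 rose and 1, nlp-17, fell (-1.205 ± 0.42). Both shares, 5.26% and 1.05%, were below the 12.6% and 4.85% of all genes. In pair 1 the median of the 95 was 0.034, and in pair 2 it was -0.62. The insulin gene ins-7, known to be made in the gut as well as in neurons, had 121.0 and 60.8 RPKM in the TRAP libraries, against 28.5 and 13.9 RPKM in the inputs (2.78 ± 0.36, limma adjusted p = 9.42e-12). The peptide gene nlp-40, released by the gut to drive the defecation rhythm, had 633 and 1003 RPKM in the TRAP libraries, against 225 and 430 RPKM in the inputs (2.08 ± 0.37). The genes nlp-36 (2.51 ± 0.39), ins-35 (2.33 ± 0.35) and ins-12 (2.11) completed the 5, and nlp-36 reached 1075 and 1796 RPKM in the TRAP libraries, against 287 and 564 RPKM in the inputs.

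Translation was examined because TRAP captures ribosomes. Of 81 tested genes of cytosolic ribosomal proteins 51 rose and 0 fell at a median of 1.52. In pair 1 that median was 0.99 and in pair 2 it was 2.06, and edgeR called 30 of the 81. The gene rpl-1 had 4054 and 4274 RPKM in the TRAP libraries, against 2503 and 1744 RPKM in the inputs (1.72 ± 0.47). Of the 3513 tested genes with the highest mean levels, from 33.6 RPKM upward, 26.8% were called higher.

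Some ribosomal protein genes that share a number had unlike values. The gene rpl-11.2 had 3705 and 5101 RPKM in the TRAP libraries, against 1975 and 764 RPKM in the inputs (2.55 ± 0.45), and was the highest of the list, while rpl-11.1 had 2314 and 884 RPKM in the TRAP libraries, against 3288 and 1861 RPKM in the inputs (-0.06, limma adjusted p = 0.95). Likewise rpl-25.1 rose by 2.44 ± 0.40, and rpl-25.2, named after its value was seen, changed by 1.01 and did not pass. The genes rpl-24.1 (2.10) and rpl-24.2 (1.63), named after their values were seen, both rose. The differences within these pairs were not tested, and their reads may be shared.

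Mitochondrial ribosomal proteins had 15 of 62 higher and 2 lower, at a median of 0.61. The 2 lower ones were far from the rest: mrpl-45 had 0.74 and 0.36 RPKM in the TRAP libraries, against 18.5 and 43.4 RPKM in the inputs (-3.52 ± 0.43), and mrps-31 changed by -2.303 ± 0.41. In other parts of the translation machinery the shares called lower were near or below the 4.85% of all genes, and those called higher were below the 12.6% of all genes. Initiation factors had 1 of 23 higher, eif-3.J (1.44 ± 0.35), and 1 lower, eif-3.H (-1.29 ± 0.37), tRNA synthetases 1 of 33 higher, tars-1 (0.93 ± 0.35), and 1 lower, wars-1 (-1.91 ± 0.37). edgeR did not call tars-1 (edgeR adjusted p = 0.0864). Of 11 elongation and release factor genes limma called 0 in either direction, with eef-1A.2 at 0.97 and eef-2 at 0.88, and of 32 proteasome genes it called 0 in either direction. In both the elongation factor and the proteasome list 4 genes had an unadjusted p below 0.05 in limma, and edgeR called 0 higher and 0 lower. The elongation factor median was 0.78, with 0.20 in pair 1 and 0.96 in pair 2. The proteasome median was 0.41, and 28 of its 32 genes were above 0. The secretory pathway had 11 of 26 genes higher and 0 lower, led by the calreticulin gene crt-1 with 2856 and 2890 RPKM in the TRAP libraries, against 1877 and 726 RPKM in the inputs (2.03 ± 0.44), and edgeR called 6 of the 26 higher.

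**Figure D4:**
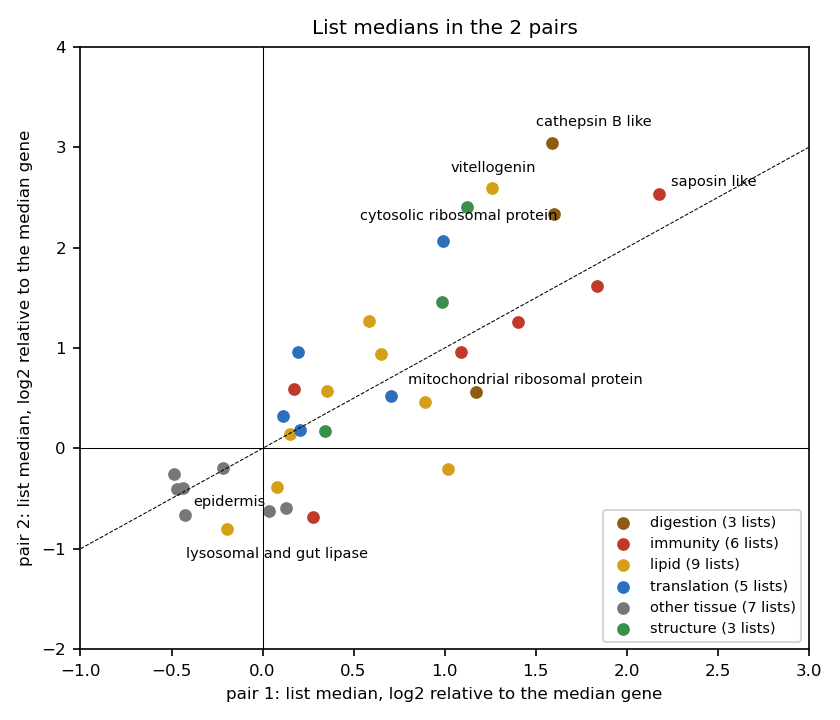
Median log2 change (relative to the median gene) of 33 gene lists with at least 5 tested genes, in pair 1 on the x axis and pair 2 on the y axis, coloured by role. The cytosolic ribosomal protein list (0.99 and 2.06) and the cathepsin B-like list (1.59 and 3.04) lie above the dashed line of equality, and the saposin-like list (2.18 and 2.54) lies nearer to it.

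The genes with the largest changes were mostly little annotated. By a fixed rule on size and level, the 12 largest increases were C08E3.13, C08E3.1, T26H5.9, F20E11.17, spp-14, Y119D3B.21, spp-1, Y39G8B.9, F53A9.1, T26H5.14, Y39G8B.7 and T26H5.10, between 3.36 and 2.91. C08E3.13 had 656 and 437 RPKM in the TRAP libraries, against 132.9 and 55.0 RPKM in the inputs (3.36 ± 0.35, limma adjusted p = 7.43e-18). Y119D3B.21 had 6421 and 9678 RPKM in the TRAP libraries, against 1489 and 1702 RPKM in the inputs (3.04 ± 0.49).

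The 10 largest decreases were elo-3, ZC155.8, Y94H6A.7, ncbp-2, R144.15, mrpl-45, W06E11.1, madf-3, sfa-1 and nstp-5, between -4.18 and -3.22. The cap-binding protein gene ncbp-2 had 10.1 and 4.44 RPKM in the TRAP libraries, against 107.8 and 224 RPKM in the inputs (-3.61 ± 0.37), and sfa-1, a splicing factor gene, had 2.31 and 0.82 RPKM in the TRAP libraries, against 20.8 and 67.9 RPKM in the inputs (-3.25 ± 0.43). In each of the 10 the TRAP libraries lay below the inputs in both replicates and across them. Beside 4.85% of all genes, those called lower were 23 of 90 tested genes annotated as ncRNA and 14 of 41 annotated as piRNA, against 619 of 13227 protein-coding genes. Called higher were 6 of the 90 and 4 of the 41, against 1683 of the 13227, beside 12.6% of all genes.

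The authors' deposited table of intestinal genes lists 719 genes, of which 709 were tested here. Of these 707 were called higher and 0 lower, at a median change of 1.82, which is a check of the deposited list and not independent of it, since both come from the same 4 libraries. It holds 39.99% of the 1768 genes called higher.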

How the data were processed

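RNA was sequenced from 2 intestine TRAP and 2 input libraries (TruSeq RNA kit, TRI reagent, per the labels). The submitters' processing notes name STAR and HTSeq; their roles, versions and genome build are not given in the sources used here. The deposited tables list, for each replicate, the genes with at least 1 RPKM in TRAP or input. RPKM is the authors' deposited unit and was used for every level and change. The deposited count columns were whole reads plus 1 for one library of a replicate, and for the other a signal that the authors scaled, by factors of 2.31 and 1.13 inferred from the steps of low values, matched by 98.5% and 100% of steps. Whole reads were recovered from those columns. The ratio column that the authors deposited in their list of intestinal genes was used for membership alone. Of the value columns, 0 were left unmatched to a sample.

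The 14262 genes listed in both replicates were filtered to a mean of at least 1 RPKM, leaving 14051, of which 13786 matched RefSeq names and biotypes. limma-trend 3.58.1 (R 4.3.3) was fitted to log2(RPKM + 1) with the replicate as a block. Before the fit the TRAP library of each pair was shifted so that the pair's median change was 0, and the inputs were left unchanged. The pairing comes from the deposited layout of TRAP and input by replicate, and deviations of same-numbered libraries correlated at r = 0.60 across genes. The block, the centring, the groups of genes and the lists were chosen with earlier results of these data known, among them that a centred fit without the block called 0 genes. Nothing in the labels says whether replicates were separate cultures, so a p-value here covers the spread between libraries alone. The code was tested on simulated data. Alternatives were edgeR 4.0.16 quasi-likelihood and DESeq2 1.42.0 on recovered reads, relative log expression (RLE) scaling, RPKM as deposited, other pseudocounts and filters, no trend, no block, and leaving out libraries. Named genes were the 12 largest increases and 10 largest decreases among calls reaching 10 RPKM on average in one fraction, with both pairs on one side, up to 4 calls of smallest p per direction and up to 2 extremes for each list, a fixed set of markers, and all members of small families; a gene outside it was picked after its values were seen, as were list members given by their change alone. Intervals for counting error are not given. Mitochondrial genome genes were not analysed here.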

Additional observations from a re-analysis of the deposited data

Results flagged for a closer look

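Several marker genes changed in opposite directions in the intestine purification and in the muscle and neuronal purifications of the same series, in both pairs of each. These differences were not tested, because the tables were normalized separately, and each change is relative to the median gene of its own purification. The genes were picked from the called members of the fixed set of markers by that opposition, which is therefore no result in itself. The called markers ges-1, vit-6, rpl-1 and unc-54 did not meet the rule in either purification. The gene spp-1, at 3.01 in intestine, stood at -1.93 in muscle and -2.23 in neurons. For mtl-2 the values were 2.64 in intestine, -2.51 in muscle and -2.25 in neurons, and for lys-7 they were 2.53, -0.93 and -1.201 in that order. The actin gene act-5 had 1.87 in intestine, -1.89 in muscle and -1.63 in neurons, and the filament gene ifb-2 had 1.89, -1.58 and -0.98. In muscle alone the gut regulators opposed their intestine changes, with elt-2 at -0.52 and elt-7 at -0.47. In neurons alone cpr-1 (-1.69) and vit-2 (-0.43) did so.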

How the results depend on the processing

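The numbers of genes called higher and lower depended first on the pairing of replicates. With no replicate block limma called 0 and 0 genes (1906 at an unadjusted p below 0.05), although the changes themselves are the same by construction, and without the block and without centring it called 57 and 750. Centring decided the balance: on RPKM as deposited with the block 317 were higher and 2935 lower, so that 9.75% of calls were higher, against 72.2% with centring and 67.99% under RLE scaling, which took -0.83 out of the changes. Of the 1768 genes called higher, 313 were also called higher as deposited, and all 1768 were above 0 there. With the block and a common scale the counts stayed within 1.5 times under RLE (1852 and 872), pseudocounts of 0.1 (1816 and 586) and 5 (1394 and 677), no filter, a mean of at least 5 RPKM, no trend, edgeR (1671 and 844) and DESeq2 (1744 and 789). edgeR shared 1559 of the higher and 549 of the lower calls. Leaving out 1 library at a time, which is possible without the block alone, gave 94 higher and 43 lower without TRAP replicate 1, 14 and 8 without TRAP replicate 2, 18 and 73 without input replicate 1, and 0 and 0 without input replicate 2 (1821 at an unadjusted p below 0.05). The lone library is there assumed to vary like the other group.

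List medians that turned negative on RPKM as deposited were those of immune signalling (-0.32), desaturases (-0.052), elongases (-0.18), acyl-CoA synthetases (-0.64), yolk assembly and export (-0.43), ABC transporters (-0.50), aquaporins (-0.29), cytochromes P450 (-0.22), UDP-glucuronosyltransferases (-0.25), gut granules (-0.41), GATA factors (-0.15), mitochondrial ribosomal proteins (-0.12), initiation factors (-0.56), tRNA synthetases (-0.53) and the proteasome (-0.32), by construction of the shift. At a pseudocount of 5 initiation factors (-0.11) and tRNA synthetases (-0.050) turned too. With pair 1 alone the medians of antimicrobial peptides (0.28), fatty acid binding (0.080), neuropeptides (0.034) and sperm (0.13) turned positive, and with pair 2 alone that of elongases (-0.20) turned negative. Named genes that turned when 1 library was left out without the block were vit-1 (-0.29), vit-2 (-1.38), vit-3 (-0.32), vit-4 (-1.003), vit-5 (-1.93), vit-6 (-0.94) and tbb-1 (-0.0815) without input replicate 2; vit-2 (-0.41), vit-4 (-0.58), vit-5 (-1.55) and vit-6 (-0.10) without TRAP replicate 1; fat-7 without TRAP replicate 2 (-0.28) or input replicate 1 (-0.39). The planned search of promoters for a GATA motif was not run, since no sequence was used here. The changes of genes at low RPKM are understated by the pseudocount.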

Other observations

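Genes called higher often had a neighbour in the genome that was also called higher, which is given as a description with no test. Among the 1529 protein-coding genes called higher that had a tested neighbour, in the RefSeq gene order of WBcel235, 546 (35.7%) had a neighbour called higher, against 1677 of 10148 genes not called (16.5%). The share with a neighbour called lower was 5.23% for the genes called higher, against 8.002% for the genes not called. Genes called lower had a neighbour called lower in 72 of 586 cases (12.3%). Of the 12 largest increases, T26H5.9, T26H5.10 and T26H5.14 share a clone name, as do C08E3.1 and C08E3.13, and Y39G8B.7 and Y39G8B.9. Neighbours of one family can be near copies that share reads, which was not tested.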
